A study of Mus musculus with 6 samples.

Results

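Cholesterol synthesis was followed through 7 genes, *Srebf2*, which encodes the transcription factor SREBP2, and the synthesis enzymes *Hmgcs1*, *Idi1*, *Fdps*, *Sqle*, *Lss* and *Cyp51*. They were chosen by name for their place in the pathway, but with earlier results of these data known, as were the further gene lists used below. Counts of called genes in these lists are therefore descriptions. All 7 genes were found among the 25403 listed and among the 14496 that passed the filter on low counts. The 7 names hold no uptake gene, so sterol uptake was read from a list of 8 further genes. Bulk RNA-seq of poly(A) RNA was done on frozen livers of 3 wild-type C57BL6/J mice (WT) and 3 mice with whole-body knockout of *Themis* (*Themis*-KO), a T cell receptor signaling gene. All 6 mice were fed the same MASH (metabolic dysfunction–associated steatohepatitis) diet, in which fat gave 40 and fructose 20 kcal% and which held 2% cholesterol, for 3 months from the age of 10 to 12 weeks, so no liver shows these genes without dietary cholesterol. The labels do not give the sex of these mice or the background strain of the *Themis*-KO line. The study describes its mice of these genotypes on this diet as male, although it also says that livers of both sexes served for gene expression. Each liver was taken as 1 replicate, and the p-values measure the spread between these 6 livers.

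Cells make cholesterol from acetyl-CoA through mevalonate, isoprenoids and squalene. When sterols in the endoplasmic reticulum are low, SCAP escorts SREBP2 to the Golgi, where proteases free its active part. This part enters the nucleus and switches on the genes of synthesis and uptake together. When sterols are high, INSIG proteins hold SCAP and SREBP2 back, and the pathway is known to be low in the liver under dietary cholesterol. *Srebf2* mRNA is not itself a measure of this cleavage.

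The promoters are shown so that the letters searched for can be seen in place. Of the 7 genes, 5 had an entry in the RefSeq promoter table of GRCm38.p6, which covers 300 bases from 250 before the transcription start. Both strands were searched for TCACNCCAC, a sterol regulatory element pattern, CCAAT, the box bound by NF-Y, CACGTG, an E-box, and GGGCGG, the Sp1 box. *Hmgcs1*, on the forward strand at chr13:119690379-119708260, holds TCACNCCAC 137 bases before its RefSeq start, which lies upstream of these gene coordinates. This pattern is found in 1.24% of the 32851 promoters of the table. The 250 bases before the RefSeq start of *Hmgcs1*, chr13:119690101-119690350 of GRCm38.p6, are given with this pattern and 3 CCAAT boxes in capitals. The boxes lie on the reverse strand and so read ATTGG.
Hmgcs1: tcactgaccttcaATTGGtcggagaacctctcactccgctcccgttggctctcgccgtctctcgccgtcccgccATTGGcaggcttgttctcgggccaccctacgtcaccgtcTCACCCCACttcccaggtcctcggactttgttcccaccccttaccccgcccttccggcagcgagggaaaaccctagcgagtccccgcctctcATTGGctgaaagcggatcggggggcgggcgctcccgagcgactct

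*Srebf2* itself, on the forward strand at chr15:82147181-82205379, holds the shorter pattern TCACNCCA 162 bases before its RefSeq start. This pattern was added after the sequences were seen, lies inside every TCACNCCAC match by construction, and is found in 4.36% of promoters. The part of the window that lies before the annotated gene, chr15:82147019-82147180, is given with that pattern and a reverse CCAAT box in capitals.
Srebf2: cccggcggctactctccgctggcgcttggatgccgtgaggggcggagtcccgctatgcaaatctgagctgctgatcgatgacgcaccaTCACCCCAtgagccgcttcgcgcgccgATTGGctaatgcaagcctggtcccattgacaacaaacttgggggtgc

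The CCAAT box was present in 5 of the 5 promoters, against 37.4% of all promoters in the table, and GGGCGG in 5 of 5, against 35.7%. CACGTG, which 7.15% of promoters hold, was in 0 of the 5. The other synthesis enzymes listed had 14 windows, of 11 genes, of which 10 held CCAAT, 11 GGGCGG, 3 CACGTG and 0 TCACNCCAC. The 30 bases around a CCAAT box, in capitals as CCAAT or as ATTGG for the reverse strand, show how the surrounding bases differ between *Cyp51* (chr5:4104709-4104738, reverse strand), *Lss* (chr10:76531531-76531560) and *Idi1* (chr13:8885580-8885609). *Idi1* holds a further CCAAT box 45 bases before its RefSeq start. The stretches of *Cyp51* and *Idi1* lie before the RefSeq starts but inside the gene coordinates used here, chr5:4081145-4104746 and chr13:8885501-8892451. That of *Lss* lies before its gene.
Cyp51: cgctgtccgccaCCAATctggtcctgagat
Lss: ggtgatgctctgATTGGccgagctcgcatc
Idi1: gtccaaggtgccATTGGctggcgaccgaca
These matches describe letters in a window and were not tested as binding sites.

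The 6 libraries held 20679642 to 25649767 counts. Levels are given as CPM, counts scaled to library size with TMM factors. *Themis* was 8.07 to 25.6 CPM in livers labelled WT and 7.74 to 9.97 in livers labelled *Themis*-KO, with a log2 fold change of −0.79 (edgeR adjusted p = 0.199), so its counts did not separate the labels and each direction given here rests on the labels. One split of the livers, here the mitochondrial split, followed the labels in part. *Gm28438* was set against *mt-Nd3*. It held 96.6% and 96.8% of their joint counts in WT replicates 1 and 2, against 2.202% to 3.261% in WT replicate 3 and the *Themis*-KO livers. No *Themis*-KO liver had the high share, so split and label cannot be fully told apart. With the split as a covariate, the label difference rests on WT replicate 3 alone against the 3 *Themis*-KO livers. Summed hepatocyte markers, 11 of 12 of which are in the table, were 65062 to 73850 CPM in WT and 56915 to 59467 in *Themis*-KO livers. Hepatocyte RNA was thus abundant in every library, but the sum was lower in every *Themis*-KO liver than in every WT liver. In bulk RNA, fewer cells of a type and less RNA per cell cannot be told apart.

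The 7 genes showed no change between the labels that passed the test. At an adjusted p under 0.05, edgeR's quasi-likelihood test called 0 of 7 genes, against 9.11% of all genes tested (4.97% higher and 4.14% lower in *Themis*-KO), and DESeq2 also called 0 of 7, against 16.3% of all genes. At an unadjusted p under 0.05 each tool gave 1 gene, *Sqle*, against 30.7% of all genes in edgeR. In 7 of 7 genes the 3 WT and 3 *Themis*-KO livers overlapped, while 34.6% of all genes had groups that did not overlap. The median log2 fold change of the 7 genes was −0.02, and that of all genes was 0.0095.

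*Srebf2*, whose product drives the other genes, was 35.6, 35.7 and 38.0 CPM in the WT livers, in the order of replicates 1 to 3 kept from here on. The *Themis*-KO livers had 35.0, 33.8 and 39.4 CPM. The range of the *Themis*-KO livers enclosed that of the WT livers. The log2 fold change was −0.01 with a 95% interval of −0.22 to 0.19 (edgeR, adjusted p = 0.926), and this was the narrowest interval of the 7 genes.

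*Hmgcs1* encodes the cytosolic synthase that makes HMG-CoA, the entry into the mevalonate steps. It was 93.3, 153.8 and 110.7 CPM in WT and 105.2, 91.0 and 179.9 CPM in *Themis*-KO livers. WT replicate 2 and *Themis*-KO replicate 3 stood high, and the groups overlapped. Its log2 fold change was 0.07 with an interval of −0.57 to 0.71 (edgeR, adjusted p = 0.878), so a change to 0.675-fold or 1.64-fold lies within it.

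*Idi1*, the isomerase that interconverts the isoprenoid building units, was 32.5, 28.7 and 42.3 CPM in WT and 24.2, 24.9 and 44.0 CPM in *Themis*-KO livers. *Themis*-KO replicates 1 and 2 were below every WT liver and replicate 3 above every WT liver. *Idi1* had a log2 fold change of −0.16 with an interval of −0.73 to 0.42 (edgeR, adjusted p = 0.698).

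*Fdps* encodes the synthase that joins these units into farnesyl diphosphate. Its values were 129.5, 98.4 and 139.5 CPM in WT and 88.8, 96.7 and 167.8 CPM in *Themis*-KO livers, with the same split, replicates 1 and 2 below and replicate 3 above all WT livers. For *Fdps*, the log2 fold change was −0.06 with an interval of −0.63 to 0.52 (edgeR, adjusted p = 0.891).

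*Sqle*, the squalene epoxidase, is a known control point of the sterol branch. It had 6.10, 6.81 and 9.51 CPM in WT and 12.2, 8.13 and 15.9 CPM in *Themis*-KO livers, from 133 to 337 counts. Only *Themis*-KO replicate 2 fell inside the WT range. Its log2 fold change of 0.69 was the highest of the 7 genes, with an interval of 0.073 to 1.304, an unadjusted p of 0.033 and an adjusted p of 0.130 (edgeR). An exact two-sided permutation test gave p = 0.2, where 3 livers against 3 cannot give less than 0.1.

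*Lss*, the cyclase that forms lanosterol, was 32.9, 31.0 and 36.3 CPM in WT and 26.5, 23.4 and 40.8 CPM in *Themis*-KO livers. Its WT livers lay close together, with replicates 1 and 2 of *Themis*-KO below and replicate 3 above them. *Lss* had a log2 fold change of −0.14 with an interval of −0.60 to 0.31 (edgeR, adjusted p = 0.647).

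*Cyp51*, the demethylase that acts on lanosterol, was 45.5, 42.3 and 65.2 CPM in WT and 49.97, 42.8 and 58.6 CPM in *Themis*-KO livers. Here WT replicate 3 was the highest liver. This gave a log2 fold change of −0.02 with an interval of −0.44 to 0.41 (edgeR, adjusted p = 0.956). Of the 4415 exon bases of *Cyp51*, 166 overlap exons of *Akap9* on the opposite strand, a gene with 7510 counts over the 6 livers, and the strand setting of the counting is not given in the sources used here.

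**Figure D1:**
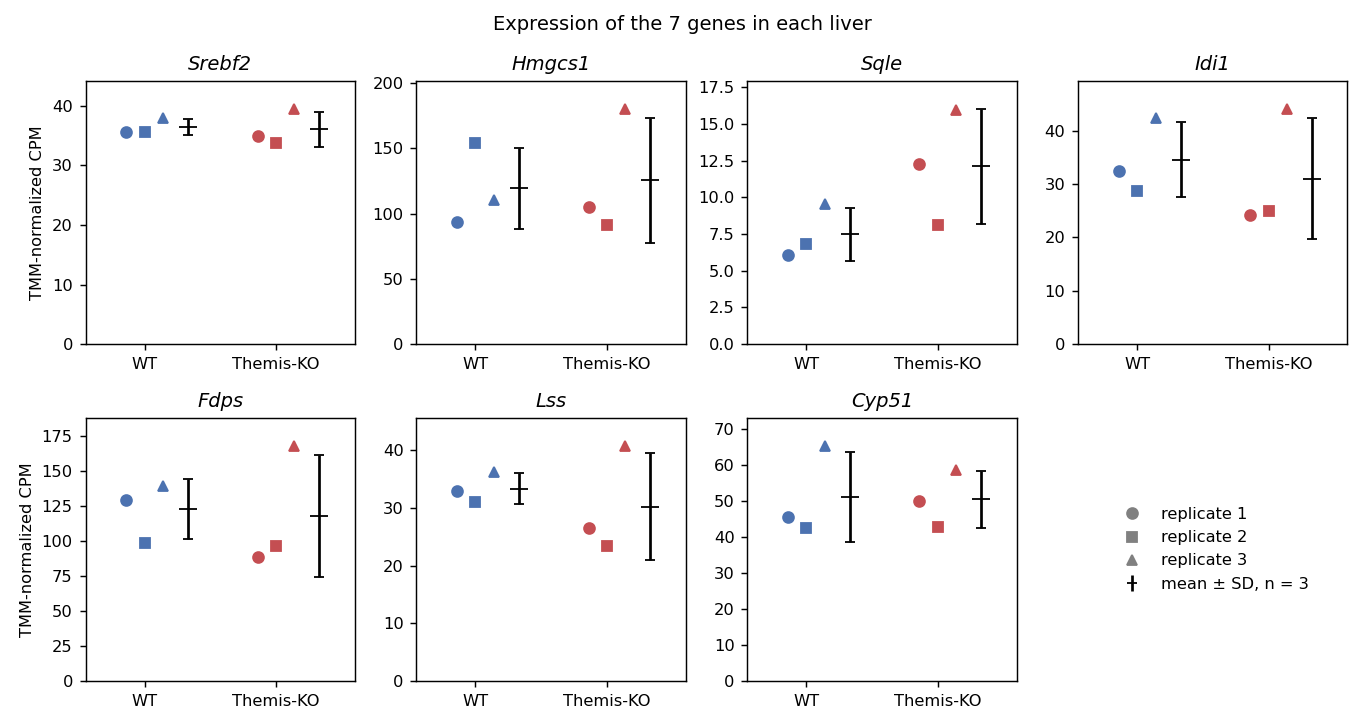
Expression of the 7 genes in each liver as TMM-normalized CPM (vertical axis, from 0), for livers labelled WT and *Themis*-KO, with one symbol per replicate number and the mean ± SD of 3 livers in black. The groups overlap in every panel, and *Themis*-KO replicate 3 is the highest *Themis*-KO liver in 7 of 7 genes.

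Per kilobase of the main transcript, the level was highest for *Fdps*, with a mean of 86.9 CPM per kb over the 6 livers (SD 22.3), followed by *Hmgcs1* with 35.3 (SD 10.45). *Cyp51* had 12.9 CPM per kb (SD 2.37) and *Idi1* had 10.8 (SD 2.84). *Srebf2* had 7.14 CPM per kb (SD 0.410), *Lss* 6.81 (SD 1.36) and *Sqle* 3.55 (SD 1.35). Each gene was above the next in this order in 6 of 6 livers, except *Srebf2*, which was above *Lss* in 3 of 6. Between the lowest and the highest liver, the level differed 2.61-fold for *Sqle*, 1.98-fold for *Hmgcs1* and only 1.17-fold for *Srebf2*.

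Spread between livers of the same label was large in these genes. The median SD of log2 CPM (prior count 2) over the 7 genes was 0.285 in WT and 0.485 in *Themis*-KO livers, against 0.148 and 0.182 over all genes tested. The SD was larger in *Themis*-KO than in WT livers for 6 of the 7 genes and for 58.5% of all genes.

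One liver, *Themis*-KO replicate 3, stood above the others. It was the highest of the 3 *Themis*-KO livers in 7 of 7 genes, against 41.2% of all genes, and lay a median of 0.71 log2 units above the mean of replicates 1 and 2. Of all genes, 5.25% deviated upward by at least as much in this liver. It was 1.83-fold above that mean in *Hmgcs1*, 1.81-fold in *Fdps*, 1.79-fold in *Idi1*, 1.63-fold in *Lss* and 1.56-fold in *Sqle*, but 1.26-fold in *Cyp51* and 1.15-fold in *Srebf2*.

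Replicates 1 and 2 of *Themis*-KO lay below every WT liver, and replicate 3 above every WT liver, in *Srebf2*, *Idi1*, *Fdps* and *Lss*, thus in 4 of 7 genes. Among all genes tested, 2.89% had this arrangement, which was looked for after the values were seen. Within WT, replicate 3 was highest in 6 of 7 genes, all but *Hmgcs1*. The mean centred log2 CPM of the 7 genes was −0.12, −0.10 and 0.18 in the WT livers and −0.12, −0.28 and 0.44 in the *Themis*-KO livers.

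**Figure D2:**
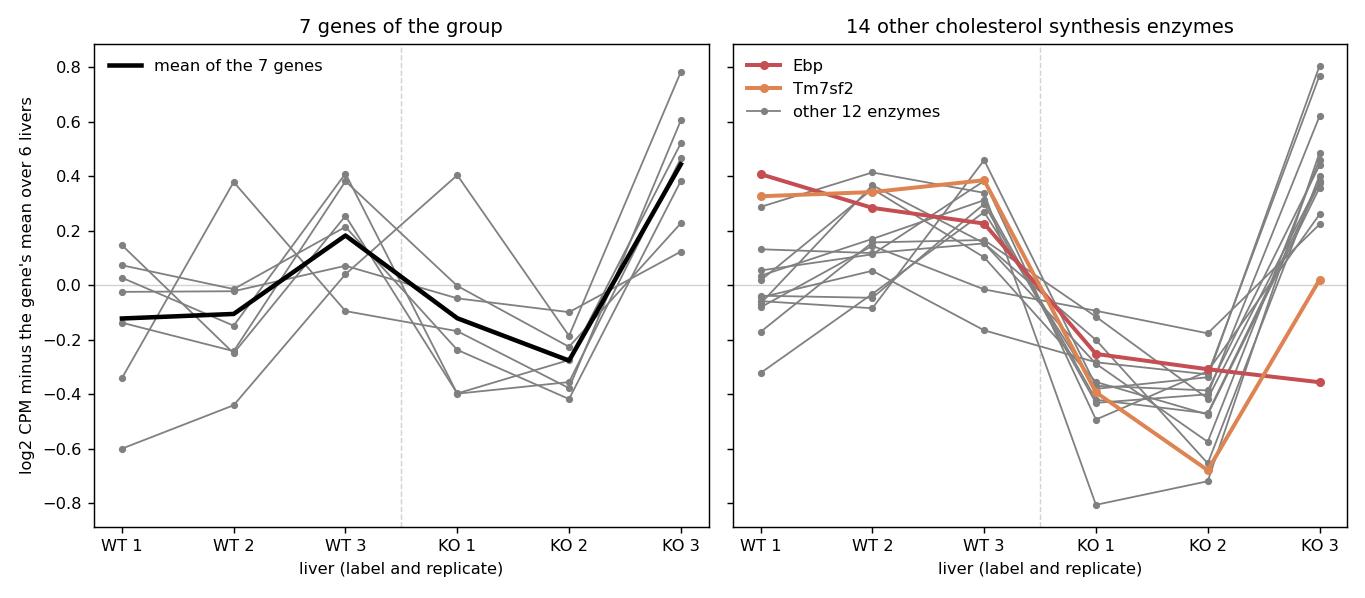
Log2 CPM of each gene minus its mean over the 6 livers (vertical axis) in each liver (horizontal axis, where lines only join the values of a gene), for the 7 genes with their mean in black and for 14 other synthesis enzymes with *Ebp* and *Tm7sf2* in colour. *Themis*-KO replicate 3 is the highest *Themis*-KO liver in 7 of 7 genes on the left and 13 of 14 on the right, where *Ebp* is the exception.

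Levels of the genes varied together from liver to liver. Over the 6 livers, Pearson's r of log2 CPM for the 21 pairs ran from 0.28 to 0.96 with a median of 0.69. The highest value was that of *Idi1* with *Fdps*, followed by *Srebf2* with *Lss* at 0.95 and *Srebf2* with *Idi1* at 0.94, and the lowest was that of *Hmgcs1* with *Cyp51*. Without *Themis*-KO replicate 3 the median was 0.51 and the range −0.35 to 0.94, and *Srebf2*, *Idi1*, *Fdps* and *Lss* stayed between 0.76 and 0.94 with each other. *Hmgcs1* and *Sqle* then had values between −0.35 and 0.51 with the other genes. These values are descriptions over 6 livers that share depth scaling, and *Sqle* has the fewest counts.

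Of the 10164 other genes with a mean of at least 5 CPM, those most like the mean pattern of the 7 genes were *Snrk* (r = 0.98), *Btnl9* (0.97), *Recql* (0.97), *Mcm4* (0.97), *Mr1* (0.97), *F2r* (0.97) and *Sdccag8* (0.96). Of the 14 other synthesis enzymes, 4 stood within the first 100 of the 10164 genes, among them *Dhcr7* at rank 19, *Pmvk* at 46 and *Sc5d* at 70. This was not particular to cholesterol synthesis. In a comparison list of 8 genes of SREBP1 and lipogenesis, *Acly* stood at rank 12, *Fasn* at 50 and *Me1* at 66, with the others of that list beyond the first 100. These values were given over 6 livers as likeness alone.

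Among the 14 other synthesis enzymes, 2 were lower in livers labelled *Themis*-KO and 0 higher, against 4.14% of all genes lower, and both act on sterols after *Cyp51*. *Ebp*, the sterol isomerase of a late step, was 144.4, 132.5 and 127.3 CPM in WT and 91.4, 87.9 and 85.0 CPM in *Themis*-KO livers. Every *Themis*-KO liver was below every WT liver, *Themis*-KO replicate 3 included. *Ebp* changed by −0.61 on the log2 scale (SE 0.08, edgeR adjusted p = 0.0131). Leaving out 1 liver in turn gave −0.65 to −0.56, and the call held in 2 of these 6 fits, those without WT replicate 3 and without *Themis*-KO replicate 3. The fits that lost it called only 20 to 76 of all genes and gave *Ebp* an edgeR adjusted p of 0.0544 to 0.0709. With the mitochondrial split as a covariate, a fit that called 3 of all 14496 genes, the value was −0.53 (edgeR adjusted p = 0.302).

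*Tm7sf2*, a sterol reductase that takes over the product of *Cyp51*, was 33.9, 34.3 and 35.4 CPM in WT and 20.6, 16.9 and 27.4 CPM in *Themis*-KO livers. The WT livers were nearly equal and the groups did not overlap. The log2 fold change was −0.68 (SE 0.16, edgeR adjusted p = 0.0439), and the call held in 1 of the 6 fits that left out a liver, that without *Themis*-KO replicate 3. The fit without WT replicate 3, with 850 of all genes called, gave an edgeR adjusted p of 0.0918, and the other fits called only 20 to 76 genes. With the mitochondrial split as a covariate it was −0.71 (edgeR adjusted p = 0.423).

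The median log2 fold change of the 14 enzymes was −0.23, with *Mvd*, the decarboxylase that makes isopentenyl diphosphate, highest at 0.19 (edgeR adjusted p = 0.684). In 13 of the 14, *Themis*-KO replicate 3 was the highest *Themis*-KO liver, by a median of 0.82 log2 units. Replicates 1 and 2 were both below every WT liver in 13 of 14 enzymes, against 29.5% of all genes, and in 9 of these replicate 3 was above every WT liver. *Msmo1*, the methyl sterol oxidase, named here after its values were seen, was 44.4, 48.4 and 46.0 CPM in WT and 20.8, 22.1 and 50.9 CPM in *Themis*-KO livers, with a log2 fold change of −0.57 (edgeR adjusted p = 0.259).

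**Figure D3:**
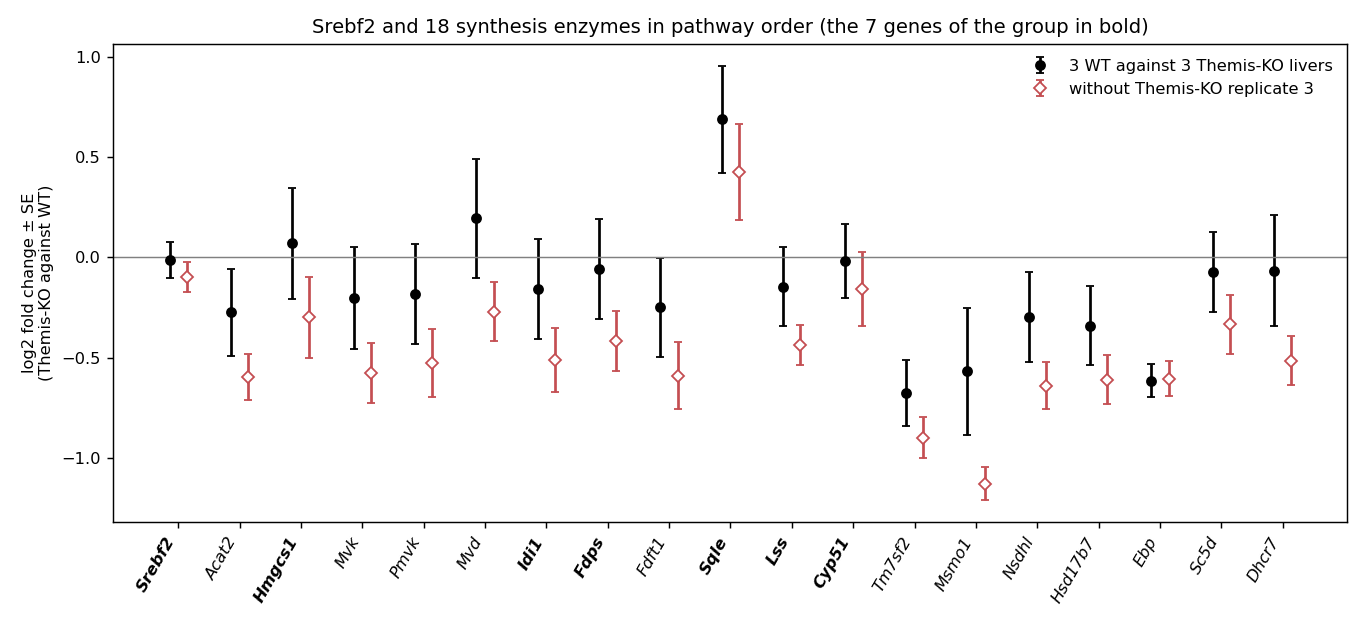
Log2 fold change ± SE (vertical axis, *Themis*-KO against WT, edgeR) of *Srebf2* and synthesis enzymes in the order of the pathway, with the 7 genes in bold, for all 6 livers (black) and without *Themis*-KO replicate 3 (open red). *Ebp* stands at −0.61 and −0.60 in the 2 fits, while most others move down when that liver is left out.

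Without *Themis*-KO replicate 3, 2 of the 7 genes were called lower and 0 higher, against 13.8% of all genes lower and 15.0% higher in that fit, 28.8% in all. *Lss* then had a log2 fold change of −0.44 (SE 0.10, edgeR adjusted p = 0.0188) and *Idi1* one of −0.51 (SE 0.16, edgeR adjusted p = 0.0478). *Fdps* had −0.42 (edgeR adjusted p = 0.0713), *Hmgcs1* −0.30 and *Cyp51* −0.16, and *Sqle* stayed positive at 0.42 (edgeR adjusted p = 0.217). The median of the 7 genes was −0.30. Of the other synthesis enzymes, 9 of 14 were called lower in that fit, and all 14 had negative values, with *Msmo1* lowest at −1.13 (edgeR adjusted p = 0.00126). The labels give no reason to set this liver aside. It was singled out after it stood highest of the *Themis*-KO livers in these same genes. Their lower values and smaller SEs in this fit follow in part from that choice. Leaving out WT replicate 1 or 2 or *Themis*-KO replicate 1 or 2 instead called 0 of the 7 genes and 0 of the 14 enzymes. Those fits called only 20 to 76 of all genes, with 14738 to 14855 tested, so 0 calls there say little about these lists. Leaving out WT replicate 3 called 0 and 1, against 850 of 14830 genes.

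Genes that control SREBP cleavage were not called with all 6 livers. Among 8 genes of processing and sterol sensing, 0 passed the edgeR threshold, against 9.11% of all genes, 1 had an unadjusted p under 0.05, against 30.7%, and the median log2 fold change was −0.01. *Scap*, the escort protein, was lowest at −0.30, with 82.7, 81.3 and 89.5 CPM in WT and 69.7, 64.3 and 72.02 CPM in *Themis*-KO livers (edgeR adjusted p = 0.0624), and DESeq2 called it lower (adjusted p = 0.0290). *Insig2*, which holds SCAP in the endoplasmic reticulum, was highest at 0.20, with 271.5, 250.6 and 246.3 CPM in WT and 318.7, 331.9 and 232.8 CPM in *Themis*-KO livers (edgeR adjusted p = 0.356). For *Insig2*, *Themis*-KO replicate 3 was the lowest of all livers. *Insig1*, itself a known SREBP target and named here after its values were seen, had 142.8, 165.2 and 189.6 CPM in WT and 114.4, 86.8 and 224.2 CPM in *Themis*-KO livers, and replicate 3 was the highest of all livers. Without that liver 3 of the 8 were called, against 28.8% of all genes, *Scap* at −0.35 (edgeR adjusted p = 0.0203) and *Insig1* at −0.74 (edgeR adjusted p = 0.0146) lower and *Insig2* at 0.33 (edgeR adjusted p = 0.0312) higher.

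In the uptake and transport list, 1 of 8 genes was called higher and 0 lower by edgeR, against 4.97% and 4.14% of all genes, and 5 of 8 had an unadjusted p under 0.05, against 30.7%. DESeq2 called 4 of 8, 2 in each direction, against 16.3% of all genes. *Npc2*, which carries cholesterol within lysosomes after lipoprotein uptake, was 61.8, 63.9 and 62.2 CPM in WT and 78.0, 78.4 and 77.0 CPM in *Themis*-KO livers. Livers of one label differed little and the groups stood apart. It changed by 0.31 on the log2 scale (SE 0.07, edgeR adjusted p = 0.0398). The call held in 1 of the 6 fits that left out a liver, that without *Themis*-KO replicate 3, with 0.30 to 0.32 over all 6. Of the fits that lost it, that without WT replicate 3 called 850 of all genes (*Npc2* edgeR adjusted p = 0.0907) and the others only 20 to 76. The split as a covariate gave 0.32 (edgeR adjusted p = 0.434).

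*Stard4*, which moves cholesterol between membranes, was lowest in the list at −0.62, with 75.3, 65.5 and 75.7 CPM in WT and 46.4, 35.8 and 58.4 CPM in *Themis*-KO livers (edgeR adjusted p = 0.0570). DESeq2 called it lower (adjusted p = 0.00710). In 5 of the 8 genes the groups did not overlap, 3 with lower and 2 with higher *Themis*-KO livers, against 34.6% of all genes, and the median log2 fold change of the 8 was −0.05. Without *Themis*-KO replicate 3, 1 of the 8 was called higher and 2 lower, against 15.0% and 13.8% of all genes.

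**Figure D4:**
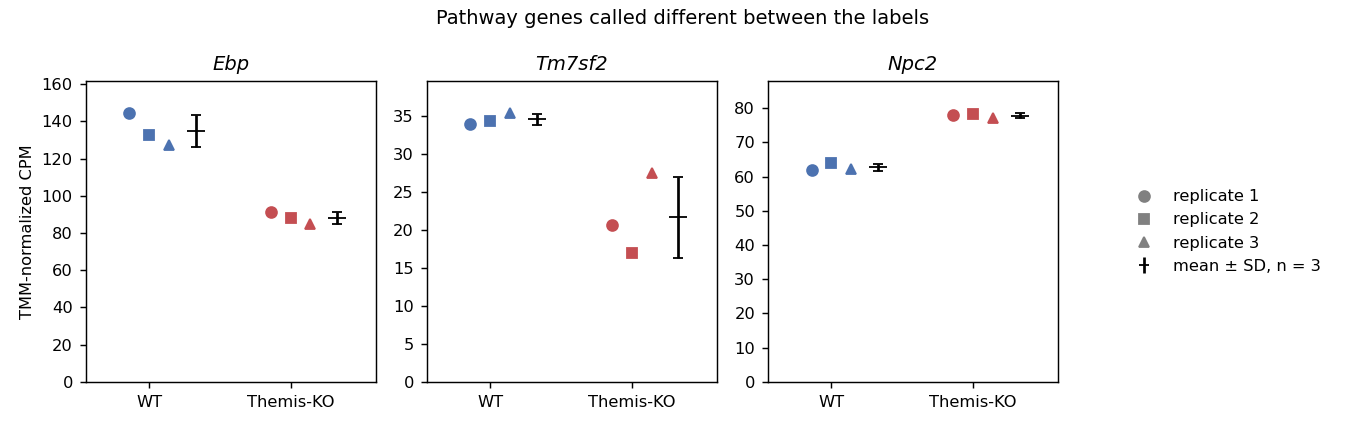
TMM-normalized CPM (vertical axis, from 0) of the pathway genes called by edgeR, *Ebp*, *Tm7sf2* and *Npc2*, in each liver labelled WT and *Themis*-KO, with one symbol per replicate number and the mean ± SD of 3 livers in black. No WT liver overlaps a *Themis*-KO liver in any of the panels.

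The summed markers of stellate cells, cholangiocytes and endothelial cells were higher in every *Themis*-KO liver than in every WT liver. Those of hepatocytes were lower in every *Themis*-KO liver than in every WT liver, while those of macrophages, T cells and B cells overlapped. Summed markers of hepatic stellate cells were 296 to 328 CPM in WT and 451 to 517 in *Themis*-KO livers, with 4 of 9 called higher, and those of cholangiocytes 167 to 207 and 399 to 629, with 1 of 7 tested called higher. Macrophage markers were 231 to 422 CPM in WT and 367 to 510 in *Themis*-KO livers, with 3 of 10 called higher, and endothelial markers 204 to 223 and 228 to 251, with 1 of 8 called higher. Not all went one way. Of the macrophage markers 8 had positive and 2 negative log2 fold changes, the lowest −1.29, and of the endothelial markers 6 and 2. Without *Themis*-KO replicate 3, 1 macrophage and 1 endothelial marker were called lower, against 4 and 1 higher. Hepatocyte markers had 1 of 11 called lower, T cell markers summed to 4.13 to 5.68 CPM in WT and 3.27 to 7.48 in *Themis*-KO livers with 1 of 5 tested called lower, and B cell markers to 3.07 to 7.29 and 1.98 to 5.81 with 0 of 5 called. The counts with all 6 livers stand against 4.97% of all genes called higher and 4.14% lower. With 1 liver left out, 20 to 4267 of all genes were called. The called markers, of either direction, then numbered 0 to 5 for stellate cells, 0 to 6 for macrophages and 0 to 3 for cholangiocytes. They numbered 0 to 2 for endothelial cells, 0 to 2 for hepatocytes and 0 to 1 for T cells. No marker was at 0 in every liver. Their part in the values of *Ebp*, *Tm7sf2* and *Npc2* was not tested. *Themis*-KO replicate 3 had the lowest stellate sum of the 3 *Themis*-KO livers, 451 CPM against 517 and 473. The mean log2 CPM of its hepatocyte markers, 11.22, lay between the 11.12 and 11.32 of replicates 1 and 2. The part of these markers in its higher synthesis genes was not tested either.

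The neighbouring lipid pathways were compared by the same counts. Of 8 genes of SREBP1 and lipogenesis, 0 were called by edgeR, against 9.11% of all genes, and 0 had an unadjusted p under 0.05, against 30.7%, with a median log2 fold change of −0.11 and a range from −0.85 for *Thrsp*, a lipogenic regulator, to 0.33 for *Fasn*, the fatty acid synthase. In 8 of 8 of them *Themis*-KO replicate 3 was the highest *Themis*-KO liver, by a median of 0.86 log2 units. Without that liver 2 of the 8 were called lower, *Thrsp* at −1.84 (edgeR adjusted p = 0.00104) and *Srebf1* at −0.90 (edgeR adjusted p = 0.00435), against 13.8% of all genes. Of 7 genes linked to the sterol receptor LXR, 3 were called, against 9.11% of all genes, the sterol exporters *Abcg5* (−0.95, edgeR adjusted p = 0.0128) and *Abcg8* (−0.97, edgeR adjusted p = 0.0146) lower and *Abcg1* (0.60, edgeR adjusted p = 0.0372) higher, and the part of the cell type markers in these values was not tested. Each of these calls held in 2 of the 6 fits that left out a liver, those without WT replicate 3 and without *Themis*-KO replicate 3. The other fits called only 20 to 76 of all genes. *Themis*-KO replicate 3 was the highest *Themis*-KO liver in 4 of these 7, by a median of 0.14 log2 units.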

How the data were processed

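Poly(A) RNA of 3 WT and 3 *Themis*-KO livers was sequenced as paired-end libraries. The authors trimmed reads with cutadapt 2.3, mapped them to GRCm38 with STAR 2.7.8a and deposited RSEM 1.3.3 expected counts per gene without normalization, as whole numbers; the annotation release is not given in the sources used here. Genotypes were compared with edgeR 4.0.16 under R 4.3.3 (filterByExpr, TMM, glmQLFit, glmQLFTest, no covariate, all 6 livers) and Benjamini-Hochberg adjustment over 14496 genes, with an adjusted p of 0.05 as threshold. Intervals are 95% intervals on the quasi-likelihood degrees of freedom. DESeq2 1.42.0, other scalings, filters and thresholds, the replicate number as a block, the mitochondrial split as a covariate and each liver left out were alternatives. The edgeR, DESeq2 and replicate block fits were run on simulated counts with larger changes than those called in the pathway lists with all 6 livers. Genes varied independently there, so this gives no power or error rate for these data. Coordinates are from GENCODE vM21 (25321 of 25403 rows matched), promoters from RefSeq GRCm38.p6. The members and lists were chosen with earlier results of these data known. Named were the 7 genes, called genes of the pathway lists, otherwise their extremes, *Themis*, and the 10 genes most like the members. Some genes of these lists are counted but not reported here by name. No 2 livers of a label agreed within sampling noise (lowest chi-square per degree of freedom 9.66). Figures were drawn with matplotlib 3.10.9.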

Additional observations from a re-analysis of the deposited data

How the results depend on the processing

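The count of called genes among the 7 stayed at 0 in every alternative except the fit without *Themis*-KO replicate 3, which gave 2, so that leaving out 1 liver gave 0 to 2. The other synthesis enzymes called, 2 of 14, became 1 with upper quartile factors, 1 with total counts alone, 0 with the replicate block, 0 with the mitochondrial split as a covariate, 0 when a 2-fold change was also asked for, and 0 to 9 when a liver was left out. All genes called, 1321, became 2179 without the filter, 2369 in DESeq2, 62 with the replicate block, 3 with the mitochondrial split (1524 at an unadjusted p under 0.05), 2980 at an adjusted p under 0.1, 431 with a 2-fold change, and 20 to 4267 when a liver was left out, the lowest without *Themis*-KO replicate 1 and the highest without *Themis*-KO replicate 3. Total counts alone moved the median log2 fold change of all genes from 0.0095 to 0.15 and turned *Srebf2* to 0.12, *Fdps* to 0.071 and *Cyp51* to 0.11. When a liver was left out, direction also turned, with ranges of −0.10 to 0.024 for *Srebf2*, −0.30 to 0.29 for *Hmgcs1*, −0.51 to 0.016 for *Idi1*, −0.42 to 0.11 for *Fdps*, −0.44 to 0.0047 for *Lss*, −0.16 to 0.20 for *Cyp51*, −0.27 to 0.38 for *Mvd* and −0.26 to 0.57 for *Fasn*; *Sqle* stayed between 0.42 and 0.90. The median of the 7 genes ran from −0.30 to 0.06 over these fits. Apart from fits with fewer livers, the cause of these shifts was not tested. Over all genes tested, same-numbered livers did not deviate together (correlations 0.00028, −0.24 and −0.16). The study speaks of 3 pairs of livers, but the labels tie no animals by number, so the main fit took no pairs. In the 7 genes, however, replicate 3 was highest in 6 of 7 in WT and in 7 of 7 in *Themis*-KO livers. The block lowered the SE of *Idi1* from 0.25 to 0.13, of *Cyp51* from 0.18 to 0.11 and of *Sqle* from 0.27 to 0.19. It raised that of *Srebf2* from 0.090 to 0.105. With the replicate number as a block, *Ebp* had an adjusted p of 0.0681, *Tm7sf2* 0.0912, *Npc2* 0.147, *Abcg5* 0.0607, *Abcg8* 0.0643 and *Abcg1* 0.0946, and with the mitochondrial split they had 0.302, 0.423, 0.434, 0.264, 0.302 and 0.471, each in the same direction as before. *Tm7sf2* also missed the threshold with upper quartile factors (0.0536) and total counts alone (0.0574), and *Npc2* without the filter (0.0737). With 3 livers a group, the widest 95% interval of the 7 genes, that of *Hmgcs1* ran from −0.57 to 0.71.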
